A study of Homo sapiens with 6 samples.

Results

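The 50 genes described here encode the machinery that copies DNA, the enzymes that supply its building blocks, and the regulators that take a cell from G1 into S phase. They were chosen by name, as replication, nucleotide synthesis and E2F-controlled G1/S genes, and matched to the gene symbols of the count data. All 50 were found among the 24462 symbols, and all 50 passed the filter on low counts that 12650 symbols passed. They were followed in MDA-MB-231, an established triple-negative breast cancer cell line with mesenchymal features, 48 h after transient transfection. The 3 groups of 2 libraries each received the NC mimic, a control small RNA; the miR-200a mimic at 100 nM; or the miR-200a mimic at 100 nM with 30 ng of an ELK3 expression plasmid, which the labels name both pcDNA3.1 Hygro(+)-ELK3 and pcDNA3.1-Flag-ELK3. The dose of the NC mimic is not given in the sources used here. No empty plasmid is named for the other groups, so the ELK3 insert and the carrying of plasmid DNA cannot be told apart. The labels do not say that the libraries of a group came from separate cultures, so each p-value measures the spread between these libraries, which may be technical.

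Before S phase, each replication origin is licensed. ORC, with CDC6 and CDT1, loads the MCM2 to MCM7 helicase onto DNA in an inactive form. In late G1, cyclin D and cyclin E kinases inactivate RB, which frees E2F factors to switch on much of the replication gene set. MCM10, CDC45 and GINS then activate the helicase, and polymerases with their clamp and clamp loader copy both strands. In bulk RNA, fewer cells in a phase and less RNA per cell cannot be told apart.

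Total counts ran from 3055915 to 4868004 per library, at which 3 counts corresponded to 0.611 to 0.979 CPM (counts relative to library size, with sizes adjusted by edgeR's TMM method); this floor covers counting error only. Of 7 defining markers of the cell line, 6 were present, with 4068 to 11179 counts of VIM, while SPARC had 0 to 8. CD44, one of the 6, was at 318 and 300.2 CPM with the NC mimic, 296 and 337 under miR-200a alone and 218 and 195 with the mimic and plasmid; it fell in the last group against miR-200a (log2 -0.61, edgeR adjusted p = 0.0151) and the NC mimic (log2 -0.58, edgeR adjusted p = 0.0181). VIM had 2158 and 2463, 2149 and 2278, and 1854 and 956 CPM and did not pass in edgeR (adjusted p = 0.0918 and 0.0722), although DESeq2 called it lower in both; limma called neither gene. The part of these shifts in the results below was not tested. Among luminal markers, ESR1 was at 0 in every library and PGR, FOXA1 and TFF1 at 3 counts or fewer, while GATA3 had 14 to 42 and KRT19 143 to 392. Of fibroblast markers, COL3A1, DCN and LUM were at 0 and COL1A1 had 81 to 198 counts. The endothelial markers CDH5 and VWF were at 0 or 1 count and PECAM1 at 3 to 13, and the blood cell markers PTPRC, CD3E and LYZ had at most 10. None of the markers of other cell types that could be tested was called in any comparison. ELK3, the gene on the plasmid, had 138 and 166 CPM with the NC mimic, 102 and 103 under miR-200a alone, and 96.2 and 79.2 with the mimic and plasmid. It was thus lowest in the libraries labelled with the plasmid, with a log2 fold change of -0.23 (SE 0.15) against miR-200a (edgeR adjusted p = 0.354) and -0.79 (SE 0.15) against the NC mimic (edgeR adjusted p = 0.0117). QuantSeq reads the 3′ end of an RNA. By the study's methods the plasmid holds the protein-coding part of ELK3 without its intact 3′UTR. Its RNA thus need not be counted under ELK3, and these counts do not check for it. The study itself reports ELK3 mRNA, by quantitative RT-PCR, and ELK3 protein back at the control level after co-transfection of these cells. Whether those were the sequenced cultures is not stated. The group is called by its label throughout, as the libraries labelled co-transfected.

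Sequences come first for the element that the gene set is known for. E2F sites are known from the promoters of several of these genes, and a promoter was searched here on both strands for TTTGGCGC, TTTCCCGC, TTTCGCGC and TTTGCCGC, where 1 stretch can hold a word on each strand. RefSeq promoters on GRCh38.p14, from 250 bases before to 50 after the start, matched 44 of the 50 genes. Of these, 24 (54.5%) held such a word, against 5.51% of 9373 promoters of tested genes and 3.33% of 27305 promoters in all. The genes were partly chosen as E2F-controlled, so this share is a description of the choice. The windows below show the word in capitals in 8 genes that were higher in the libraries labelled co-transfected and in 3 (MCM2, MCM6 and PCNA) that did not pass the test. Each is written on the strand of its gene, and where the capitals read GCGGGAAA the word lies on the other strand.
CDC6, chr17:40287875-40287904, plus strand: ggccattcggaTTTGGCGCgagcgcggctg
MCM3, chr6:52284728-52284757, minus strand: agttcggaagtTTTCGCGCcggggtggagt
MCM7, chr7:100101388-100101417, minus strand: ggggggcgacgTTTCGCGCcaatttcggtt
E2F1, chr20:33686387-33686416, minus strand: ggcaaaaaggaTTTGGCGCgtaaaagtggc
CDC25A, chr3:48188443-48188472, minus strand: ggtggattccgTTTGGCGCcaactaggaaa
DTL, chr1:212035729-212035758, plus strand: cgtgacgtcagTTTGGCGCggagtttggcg
RFC3, chr13:33818083-33818112, plus strand: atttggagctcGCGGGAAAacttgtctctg
GINS2, chr16:85688967-85688996, minus strand: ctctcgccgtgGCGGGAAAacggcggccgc
MCM2, chr3:127598402-127598431, plus strand: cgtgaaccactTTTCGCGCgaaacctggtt
MCM6, chr2:135876515-135876544, minus strand: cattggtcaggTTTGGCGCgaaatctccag
PCNA, chr20:5126663-5126692, minus strand: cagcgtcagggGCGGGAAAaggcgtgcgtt

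The word lay 8 bases past the start in CDC6, 4 bases before it in MCM3 (offset -4) and at offset -44 in CDC25A. MCM6 held 4 words, the pairs overlapping on opposite strands. A word was found in 8 of 16 promoters (50%) of genes higher in the libraries labelled co-transfected than with miR-200a, and in 16 of 28 (57.1%) of those not called. The ETS word CCGGAAG, of the family to which ELK3 belongs, was in 5 of the 44 promoters (11.4%) against 19.6% of those of tested genes. CCAAT was in 25 (56.8%) against 37.1%, and the CHR word TTTGAA, known from mitotic promoters, in 1 (2.27%) against 9.66%. These are matches of letters in a fixed window and not sites shown to be bound.

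The other sequence is that of the small RNA itself. Mature miR-200a-3p (RefSeq, GRCh38.p14, chr1:1167916-1167937, plus strand) has 22 bases, here with its seed, bases 2 to 8, in capitals, and pairs through the seed with CAGTGTT in a 3′UTR. The 3 windows below, on GRCh38, show that word in capitals in the 3′UTR. They are from genes that were higher in the libraries labelled co-transfected than with miR-200a. Windows of genes with the word that did not pass there, E2F2 among them, are not shown.
miR-200a-3p: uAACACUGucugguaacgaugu
DTL, chr1:212103495-212103524, plus strand: ttatatcagttCAGTGTTaaaatgcagtct
CDC25A, chr3:48157852-48157881, minus strand: gagtatcaaatCAGTGTTggatggaccacc
MCM3, chr6:52264474-52264503, minus strand: tactcccttaaCAGTGTTgaattcaactga

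In GENCODE 29 with 1 transcript per gene, 7 of the 50 genes (14%) held the word in the 3′UTR, against 2195 of 11261 tested genes (19.5%). The 7 were MCM3, RPA1, CCNE2, E2F2, CDC25A, DTL and MSH6. With miR-200a against the NC mimic, 6 of the 7 had a log2 fold change below 0, from -0.02 in MSH6 to -0.34 in DTL, and none passed the test. Of all 50 genes, 35 were below 0 in this comparison, so the sign was common with or without a site. E2F2, with 0.16, was the exception in sign.

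As a whole, the 50 genes stood highest in the libraries labelled co-transfected. Their summed level was 3147.2 and 3197.7 CPM with the NC mimic, 2824.1 and 2934.8 under miR-200a alone, and 4252.9 and 4141.7 in the libraries labelled co-transfected. The miR-200a libraries were lowest and the 3 groups did not overlap in this sum. As a share of all counts, the genes took 0.3113% and 0.3207%, then 0.285% and 0.2959%, then 0.4246% and 0.4052%. In the 2 libraries labelled co-transfected, 45 and 41 of the 50 genes were above their own mean over the 6 libraries, against 14 and 18 with the NC mimic and 5 and 9 with miR-200a. By mean CPM, 30 genes were highest in the libraries labelled co-transfected and lowest with miR-200a, and 13 were highest there and lowest with the NC mimic.

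**Figure D1:**
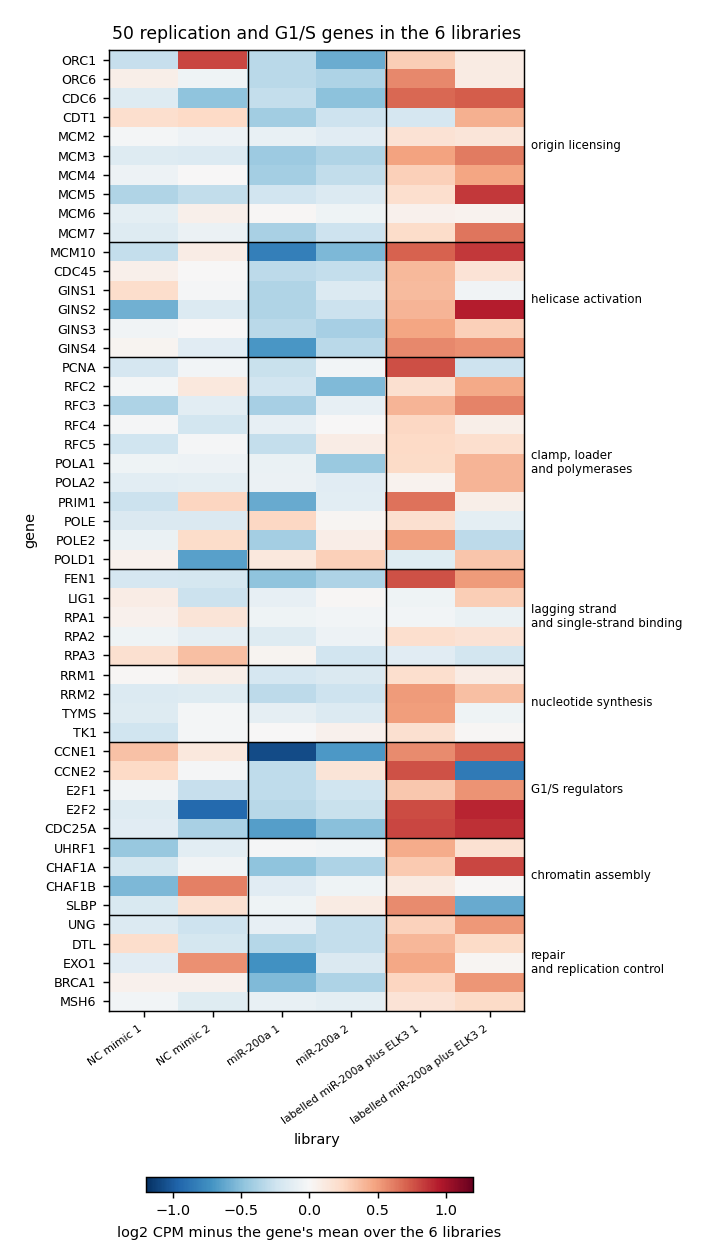
Log2 CPM of each of the 50 genes in each of the 6 libraries, minus the gene's mean over the 6 libraries, with genes in rows grouped by role and libraries in columns. In the 2 right-hand columns, labelled miR-200a plus ELK3, 45 and 41 of the 50 genes are above their mean (red), against 5 and 9 in the miR-200a columns; CCNE2, PCNA and SLBP differ between the 2 right-hand columns.

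The 3 comparisons share libraries pairwise, so they are not independent of one another, and each is given with its own values. With miR-200a against the NC mimic, the change in the 50 genes was small. By edgeR's quasi-likelihood test with Benjamini-Hochberg adjustment over 12650 genes, 0 of the 50 were called higher, where 0.213% of all tested genes were, and 0 lower, where 0.0553% were. DESeq2 and limma also called 0, where they called 0.696% and 0.0316% of all tested genes in either direction. At an unadjusted p under 0.05, 0 genes were higher (background 5.13%) and 6 were lower (background 4.11%), namely CCNE1, MCM10, BRCA1, CDT1, EXO1 and MCM4. The median log2 fold change was -0.19, against -0.02 over all genes, and 35 of the 50 values were below 0, as were 52.8% of all. With only these 2 groups in the model, CCNE1, BRCA1, MCM10 and CDT1 passed as lower, in a fit that called 3.17% of all genes lower. Without the first or the second library labelled co-transfected, the median log2 fold change of the 50 genes was -0.171 or -0.168. Over all genes it was then -0.00626 or -0.00262.

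The libraries labelled co-transfected differed from the miR-200a libraries in 19 of the 50 genes, all higher, where 7.03% of all tested genes were called higher and 5.91% lower. The median log2 fold change was 0.60 (0.02 over all genes), and 46 of 50 values were above 0, against 51.2% of all. At an unadjusted p under 0.05, 28 were higher (background 16.5%) and 0 lower (background 14.1%). Both miR-200a libraries were needed: without either, 0 of the 50 passed the adjusted threshold and 49 or 31 genes did in all. Without an NC mimic library, which enters only through the shared estimate of spread, 10 or 11 passed, in fits that called 4.38% and 4.4% of all genes in either direction. Without the first library labelled co-transfected, 24 of the 50 were higher and 1 lower in a fit that called 35.7% of all genes, and without the second 27 were higher and 0 lower, with 22.1% called. The lone library then left in a group is assumed to vary like the others. limma on quantile-normalized values called 2, CCNE1 and CDC25A, where it called 0.846% of all genes, 23.4% of these higher. Among all genes called by edgeR with TMM, 54.3% were higher. With upper-quartile normalization 11.9% of all genes were called, 41.4% of these were higher, and 16 of the 50 passed.

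Against the NC mimic, the libraries labelled co-transfected were higher in 13 of the 50 genes and lower in 0, where 6.92% and 5.95% of all tested genes were called. The median was 0.35 (0.01 over all genes), with 45 of 50 values above 0 against 50.9% of all. At an unadjusted p under 0.05, 18 were higher (background 16.2%) and 1, RPA3, was lower (background 14.5%). Without either NC mimic library 0 of the 50 passed, with 97 or 96 genes passing in all. Without a miR-200a library 5 passed each time, in fits that called 4.5% and 4.46% of all genes in either direction. Without the first library labelled co-transfected, 18 of the 50 were higher and 2 lower in a fit that called 35.6% of all genes, and without the second 19 were higher and 0 lower, with 22.3% called. limma called 2, CDC25A and E2F2, where it called 3.09% of all genes, 42.2% of these higher. Among all genes called by edgeR with TMM, 53.8% were higher. With upper-quartile normalization 12.5% of all genes were called, 42.9% of these were higher, and 11 of the 50 passed.

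**Figure D2:**
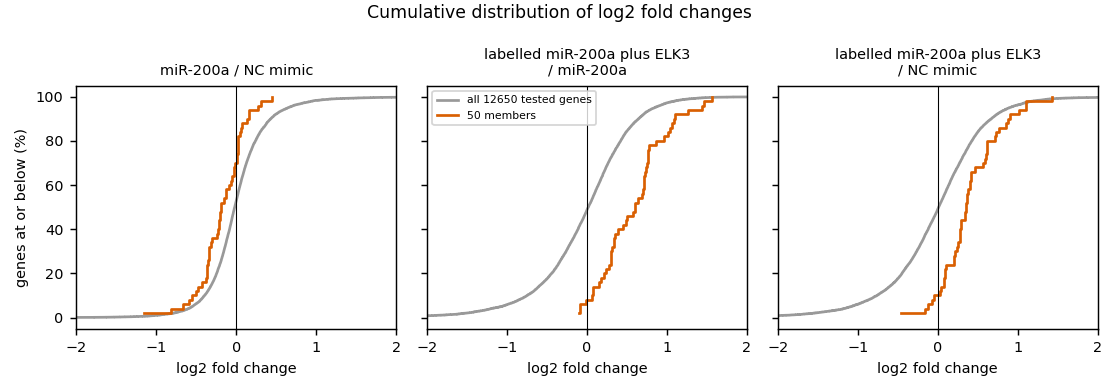
Cumulative share (%) of genes at or below each log2 fold change, for the 50 genes (orange) and all 12650 tested genes (grey), in the 3 comparisons, which share libraries. The orange curve lies left of the grey one for miR-200a over the NC mimic (medians -0.19 and -0.02) and right of it in both comparisons with the libraries labelled co-transfected (medians 0.60 and 0.02, and 0.35 and 0.01).

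For each role below, the background is 7.03% of all tested genes called higher against miR-200a and 6.92% against the NC mimic. Origin licensing was represented by 10 genes. Of these, 5 rose in the libraries labelled co-transfected against miR-200a (CDC6, MCM3, MCM4, MCM5 and MCM7) and 4 against the NC mimic (the same set without MCM4). CDC6, the ATPase that works with ORC to load the helicase, had 36.8 and 29.04 CPM with the NC mimic, 33.4 and 28.9 under miR-200a alone, and 66.1 and 67.7 in the libraries labelled co-transfected. The first 2 groups overlapped and the third lay apart from both. The fold was 2.14 against miR-200a (log2 1.10, SE 0.18, edgeR adjusted p = 0.00606) and 2.02 against the NC mimic (log2 1.01, SE 0.18, edgeR adjusted p = 0.00769).

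The 6 subunits of the MCM helicase work in equal numbers as 1 ring. In the libraries labelled co-transfected against miR-200a, their log2 values ran from 0.06 in MCM6 to 0.96 in MCM3. Differences in change between subunits were not tested. With the NC mimic MCM3 stood at 133 ± 0.651 CPM (SD, n = 2), under miR-200a alone at 113 ± 4.17 (SD, n = 2) and at 219 ± 15.2 (SD, n = 2) in the libraries labelled co-transfected, where the single values were 209 and 230. Its log2 fold change was 0.96 (SE 0.13) against miR-200a (edgeR adjusted p = 0.00288) and 0.72 (SE 0.13) against the NC mimic (edgeR adjusted p = 0.00743). MCM7 had 181 and 191, 154 and 169, and 235 and 315 CPM, the replicates of the last group lying well apart, and rose 1.7-fold and 1.48-fold. MCM5 had 33.0 and 34.6, 36.1 and 37.9, and 48.8 and 76.9 CPM. MCM5 rose by 0.76 (SE 0.21) on the log2 scale against miR-200a (edgeR adjusted p = 0.0425), a call that was lost without the second library labelled co-transfected, where its log2 value was 0.37. MCM4 rose 1.67-fold against miR-200a, and its fold of 1.33 against the NC mimic did not pass (edgeR adjusted p = 0.0796).

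MCM2 and MCM6, the remaining subunits, did not pass in any comparison. MCM2 had 180 and 176 CPM with the NC mimic, 172 and 167 under miR-200a alone, and 207 and 203 in the libraries labelled co-transfected. The last group was above the others, by 0.27 (SE 0.12) on the log2 scale against miR-200a (edgeR adjusted p = 0.152). MCM6 stayed between 37.2 and 42.1 CPM in all 6 libraries, with a log2 value of 0.06 (SE 0.16, edgeR adjusted p = 0.829) in that comparison. Whether MCM6 differed in its change from MCM3 was not tested. CDT1, the other loading factor, was at 40.5 and 41.4 CPM with the NC mimic, 26.2 and 29.6 under miR-200a alone, and 30.6 and 47.2 in the libraries labelled co-transfected. It did not pass the test in any of the 3 comparisons (edgeR adjusted p = 0.485, 0.171 and 0.851), and the 2 libraries labelled co-transfected lie on either side of the NC mimic libraries and above the miR-200a libraries. ORC1 and ORC6, subunits of the origin recognition complex, did not pass either, with edgeR adjusted p = 0.0526 for ORC6 against miR-200a.

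**Figure D3:**
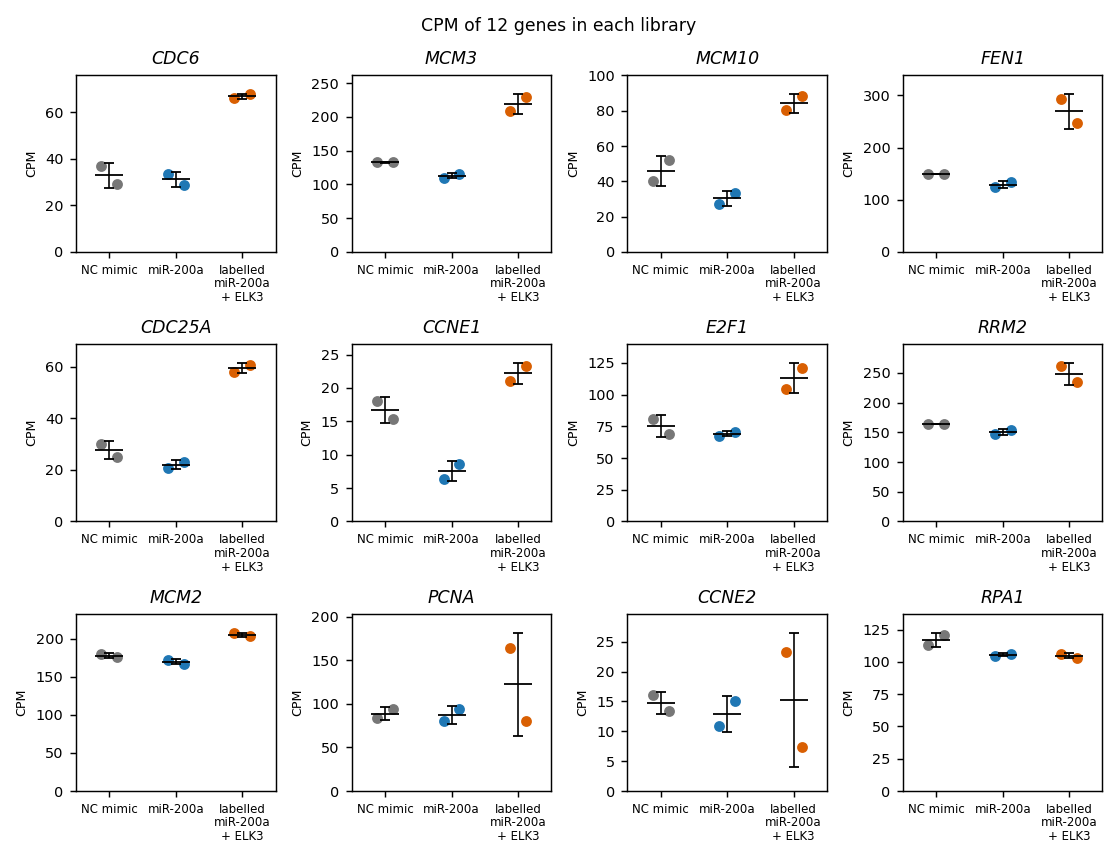
CPM (axes start at 0) of 12 genes in each library, with points for the 2 libraries of each group and bars for the mean and SD (n = 2). The top rows hold genes that were higher in the libraries labelled co-transfected than with miR-200a, CDC6 at 66.1 and 67.7 CPM among them; in the bottom row MCM2, PCNA, CCNE2 and RPA1 did not pass, and the 2 libraries of PCNA (164 and 80.9) and CCNE2 (23.2 and 7.29) in that group lie apart.

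Of the 6 genes of helicase activation, 3 rose in the libraries labelled co-transfected against miR-200a (MCM10, GINS2 and GINS4) and 2 against the NC mimic (MCM10 and GINS2). MCM10, which is needed to start unwinding, had 40.1 and 51.9 CPM with the NC mimic, 27.4 and 33.4 under miR-200a alone, and 80.3 and 88.1 in the libraries labelled co-transfected. The groups did not overlap. It rose 2.77-fold against miR-200a (log2 1.47, SE 0.18, edgeR adjusted p = 0.00236) and 1.84-fold against the NC mimic (log2 0.88, SE 0.18, edgeR adjusted p = 0.0142). Between miR-200a and the NC mimic, its log2 value of -0.59 (SE 0.19) did not pass (edgeR adjusted p = 0.341).

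The GINS complex links the helicase to the leading-strand polymerase. GINS2 had 10.7 and 14.4, 12.5 and 13.5, and 21.6 and 31.5 CPM in the 3 groups, and rose 2.05-fold against miR-200a (edgeR adjusted p = 0.0315) and 2.14-fold against the NC mimic (edgeR adjusted p = 0.0287). Without the second library labelled co-transfected, the first of these calls was lost, with a log2 value of 0.70. GINS4 rose 2.13-fold against miR-200a (edgeR adjusted p = 0.0188). Its fold of 1.53 against the NC mimic did not pass (edgeR adjusted p = 0.112). GINS1, GINS3 and CDC45 had log2 values of 0.45, 0.76 and 0.59 against miR-200a, with edgeR adjusted p = 0.199, 0.0548 and 0.0886.

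Among the 11 genes of the clamp, its loader and the polymerases, 2 rose against miR-200a and 1 against the NC mimic, all of them loader subunits. These are 18.2% and 9.09% of the 11, where 7.03% and 6.92% of all genes were called higher, so the second share is near the background. RFC3 had 31.4 and 37.2 CPM with the NC mimic, 30.7 and 37.9 under miR-200a alone, and 54.0 and 61.6 in the libraries labelled co-transfected. Its log2 fold change was 0.75 (SE 0.18) against miR-200a (edgeR adjusted p = 0.0258) and 0.76 (SE 0.19) against the NC mimic (edgeR adjusted p = 0.0271). RFC2 rose 1.64-fold against miR-200a (edgeR adjusted p = 0.0455), a call that passed in 1 of 7 alternative fits. RFC4, with the highest mean log2 CPM of these 11, ran from 167 to 231 CPM and did not pass.

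PCNA, the sliding clamp, had 83.5 and 94.0 CPM with the NC mimic, 79.7 and 94.1 under miR-200a alone, and 164 and 80.9 in the libraries labelled co-transfected. The 2 libraries of the last group differed 2.03-fold, the second being within the range of the other groups. Its log2 value against miR-200a was 0.50 (SE 0.27, edgeR adjusted p = 0.239). The catalytic subunits POLE and POLD1 were the lowest of the 50 in that comparison, with log2 values of -0.10 (SE 0.20) and -0.09 (SE 0.29), neither past the test.

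FEN1, the nuclease that trims Okazaki fragments, had 150 and 149 CPM with the NC mimic, 124 and 134 under miR-200a alone, and 294 and 246 in the libraries labelled co-transfected. It rose 2.1-fold against miR-200a (log2 1.07, SE 0.13, edgeR adjusted p = 0.00236) and 1.8-fold against the NC mimic (log2 0.85, SE 0.13, edgeR adjusted p = 0.00482). FEN1 overlaps FADS2 on the same strand within the last 500 bases of its transcript in GENCODE 29, so counts could be shared between them. The other 4 genes of this role did not pass. RPA1, the large subunit of the single-strand binding protein, had 113 and 121, 105 and 106, and 106 and 103 CPM, and a log2 value of -0.01 (SE 0.13) against miR-200a. RPA3, the small subunit, was the lowest of the 50 against the NC mimic, with a log2 value of -0.46 (SE 0.19, edgeR adjusted p = 0.133).

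Of the 4 genes of nucleotide synthesis, RRM2 rose in both comparisons with the libraries labelled co-transfected. RRM2, the subunit of ribonucleotide reductase whose level follows S phase, had 164 and 165 CPM with the NC mimic, 147 and 153 under miR-200a alone, and 261 and 235 in those libraries. Its fold was 1.65 against miR-200a (log2 0.73, SE 0.12, edgeR adjusted p = 0.00747) and 1.51 against the NC mimic (log2 0.60, SE 0.12, edgeR adjusted p = 0.0146). RRM1, its partner subunit, had 312 and 325, 268 and 274, and 355 and 328 CPM, and its log2 value of 0.33 (SE 0.12) against miR-200a did not pass (edgeR adjusted p = 0.0831). TYMS, which makes thymidylate, had 102 and 112, 105 and 101, and 161 and 109 CPM, with the second library of the last group inside the range of the NC mimic. TK1, the salvage enzyme for thymidine, had a log2 value of 0.08 (SE 0.14, edgeR adjusted p = 0.753).

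Of the 5 G1/S regulators, 3 rose in the libraries labelled co-transfected against miR-200a (CCNE1, E2F1 and CDC25A) and 2 against the NC mimic (E2F1 and CDC25A). CCNE1, cyclin E1, had 18.04 and 15.3 CPM with the NC mimic, 6.44 and 8.56 under miR-200a alone, and 21.1 and 23.3 in the libraries labelled co-transfected, from 81, 47, 31, 42, 89 and 99 counts. The groups did not overlap. It rose 2.95-fold against miR-200a (log2 1.56, SE 0.26, edgeR adjusted p = 0.00658). Under miR-200a alone against the NC mimic the log2 value was -1.16 (SE 0.27), which did not pass with all 6 libraries in the model (edgeR adjusted p = 0.132) and passed with only the 4 compared libraries (edgeR adjusted p = 0.00579). CCNE2, cyclin E2, differed 3.19-fold between the 2 libraries labelled co-transfected, at 23.2 and 7.29 CPM, and without the first of them its log2 value against the NC mimic turned from 0.04 to -1.02 (edgeR adjusted p = 0.0201).

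CDC25A, the phosphatase that removes the inhibitory mark from CDK2, had 30.1 and 25.1 CPM with the NC mimic, 20.8 and 23.2 under miR-200a alone, and 58.0 and 60.9 in the libraries labelled co-transfected. It rose 2.7-fold against miR-200a (log2 1.43, SE 0.18, edgeR adjusted p = 0.00236) and 2.14-fold against the NC mimic (log2 1.10, SE 0.18, edgeR adjusted p = 0.00567). Both calls passed in 7 of 7 alternative fits, leaving out libraries aside. Its promoter window with the E2F word and its 3′UTR window with the miR-200a word are printed above.

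E2F1, a transcription factor that drives S phase genes, had 81.1 and 68.9, 67.7 and 70.5, and 104 and 121 CPM. It rose 1.63-fold against miR-200a (log2 0.71, SE 0.15, edgeR adjusted p = 0.017) and 1.5-fold against the NC mimic (log2 0.59, SE 0.15, edgeR adjusted p = 0.0327), the latter passing in 2 of 7 alternative fits. E2F2, a close relative, was scarce, with 14 and 5, 13 and 14, and 27 and 30 counts. Its log2 values of 1.27 (SE 0.41) and 1.43 (SE 0.43) were among the largest of the 50 but did not pass (edgeR adjusted p = 0.0663 and 0.055), and at 5 counts the precision is low.

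**Figure D4:**
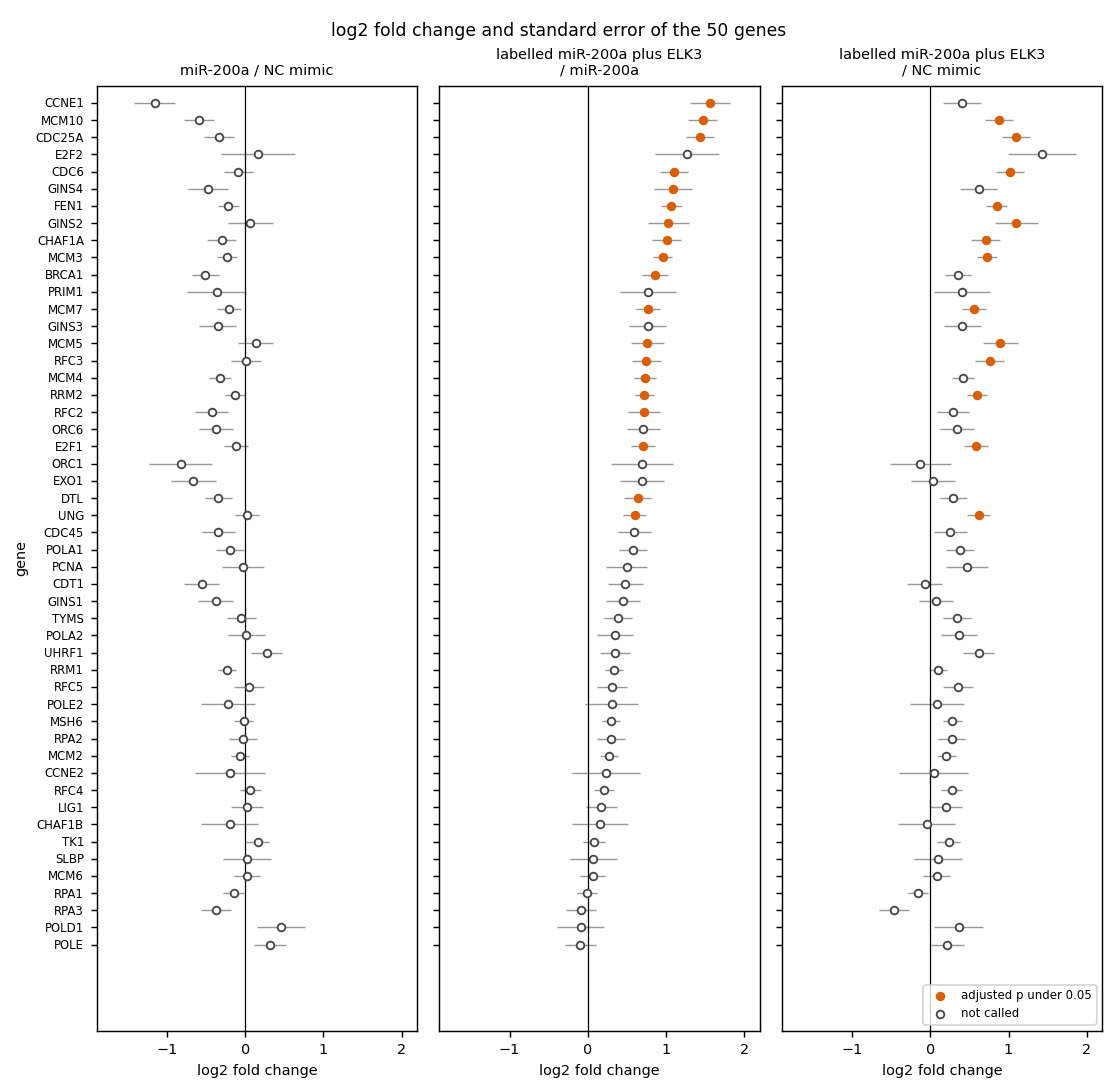
Log2 fold change (points) and standard error (bars) of each of the 50 genes in the 3 comparisons, ordered by the middle one; filled points have an edgeR adjusted p under 0.05. No point is filled for miR-200a over the NC mimic, 19 are filled for the libraries labelled co-transfected over miR-200a and 13 for the same libraries over the NC mimic, all to the right of 0.

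Of the 4 genes of chromatin assembly, 1 rose in both comparisons with the libraries labelled co-transfected. CHAF1A, a subunit of the factor that deposits histones behind the fork, had 58.8 and 66.2 CPM with the NC mimic, 48.6 and 52.8 under miR-200a alone, and 84.8 and 119 in the libraries labelled co-transfected. It rose 2.01-fold against miR-200a (edgeR adjusted p = 0.00939) and 1.63-fold against the NC mimic (edgeR adjusted p = 0.0324). SLBP, which binds histone mRNA, had 98.8 and 43.5 CPM in the last group, on either side of the other libraries. UHRF1, which carries DNA methylation over to new DNA, had log2 values of 0.34 and 0.62 against miR-200a and the NC mimic (edgeR adjusted p = 0.253 and 0.0663). CHAF1B did not pass.

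Of the 5 genes of repair and replication control, 3 rose against miR-200a and 1 against the NC mimic. UNG, which removes uracil from DNA, had 80.2 and 75.7, 84.3 and 73.8, and 110 and 130 CPM, and rose by 0.60 (SE 0.15) and 0.62 (SE 0.15) on the log2 scale against miR-200a and the NC mimic (edgeR adjusted p = 0.0288 and 0.0272). BRCA1, the repair factor, had 51.7 and 51.6, 34.3 and 38.3, and 59.7 and 71.9 CPM. BRCA1 rose by 0.86 (SE 0.17) on the log2 scale against miR-200a (edgeR adjusted p = 0.012), while its log2 value of 0.35 against the NC mimic did not pass (edgeR adjusted p = 0.18). DTL, which directs destruction of CDT1, rose by 0.64 (SE 0.17) against miR-200a (edgeR adjusted p = 0.0361), a call that passed in 4 of 7 alternative fits. The mismatch repair gene MSH6 and the nuclease gene EXO1 did not pass, with log2 values of 0.30 and 0.69 against miR-200a (edgeR adjusted p = 0.126 and 0.134).

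The spread between replicates was itself uneven. Of the 50 genes, 7 differed more than 1.5-fold between the 2 libraries labelled co-transfected, 5 between the NC mimic libraries and 0 between the miR-200a libraries. In the first of these groups CCNE2, SLBP, PCNA, POLE2 and PRIM1 were higher in replicate 1, and CDT1 and MCM5 in replicate 2. The root mean square log2 difference between replicates was 0.444 for the 50 genes in that group, against 0.559 for all genes. It was 0.349 against 0.403 with the NC mimic and 0.222 against 0.342 with miR-200a. In each group the spread was thus not larger in the 50 genes than in all genes. VIM also differed between the 2 libraries labelled co-transfected (7830 and 4068 counts); its part in these results was not tested.

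**Figure D5:**
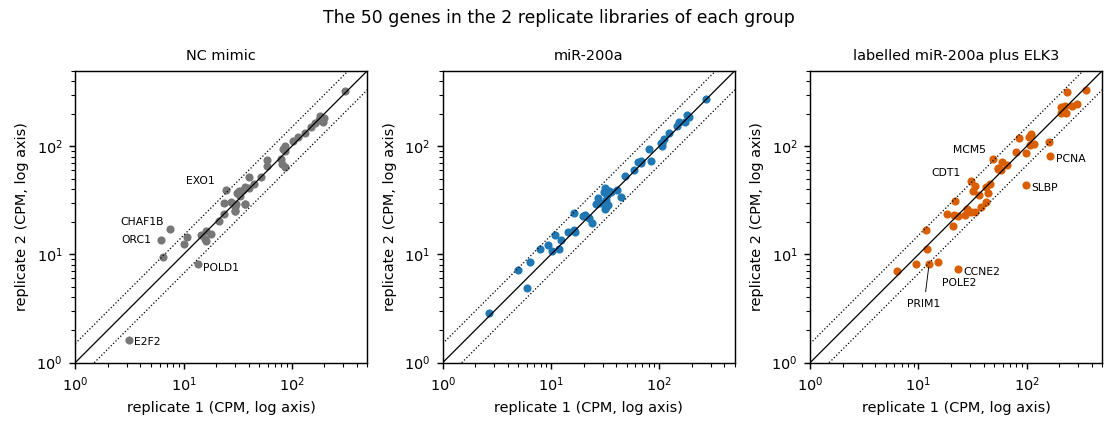
CPM of the 50 genes in replicate 1 (x, log axis) and replicate 2 (y, log axis) of each group; the solid line marks equal values, the dotted lines a 1.5-fold difference, and genes beyond them are named. No gene lies beyond the dotted lines with miR-200a, 5 do with the NC mimic and 7 in the libraries labelled co-transfected.

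Other genes of the same pathway came from lists drawn up by function, with earlier results of these data known. Of 29 other replication factors, 8 rose and 0 fell in the libraries labelled co-transfected against miR-200a by edgeR. Against the NC mimic 4 rose and 0 fell (backgrounds of 7.03% and 6.92% higher). DESeq2 called 5 and 4 of the 29 higher, where it called 9.81% and 9.99% of all genes in either direction. limma called 0 and 0, where it called 0.846% and 3.09% of all genes. CLSPN, the checkpoint adaptor at the fork, had 58.1 and 62.0, 46.5 and 58.9, and 130 and 120 CPM, and passed in both (edgeR adjusted p = 0.00257 and 0.00407). Of 17 other genes of nucleotide synthesis, 4 and 3 rose by edgeR. DESeq2 called 4 and 2 of the 17 higher, and limma 0 and 1, the latter being CTPS1. CTPS1, which makes CTP, had log2 values of 1.27 (SE 0.24) and 1.29 (SE 0.25), with edgeR adjusted p = 0.0117 and 0.0114.

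Of 28 listed E2F, RB and cyclin-CDK genes, 25 were tested; 1 rose and 3 fell in the libraries labelled co-transfected against miR-200a, and 2 rose and 3 fell against the NC mimic. These are 4% higher and 12% lower, and 8% higher and 12% lower, where 7.03% and 5.91%, and 6.92% and 5.95%, of all genes were called, so the higher shares are near the background. CCND1, cyclin D1, had 247 and 256 CPM with the NC mimic, 338 and 340 under miR-200a alone, and 633 and 693 in the libraries labelled co-transfected. The groups did not overlap, and CCND1 rose by 0.97 (SE 0.11) on the log2 scale against miR-200a (edgeR adjusted p = 0.00181) and by 1.40 (SE 0.12) against the NC mimic (edgeR adjusted p = 0.00019). CDKN1C, a CDK inhibitor, had 20.3 and 23.5, 56.9 and 50.5, and 30.3 and 24.7 CPM. It rose with miR-200a against the NC mimic, by 1.30 (SE 0.19) on the log2 scale (edgeR adjusted p = 0.0328), and fell in the libraries labelled co-transfected against miR-200a (log2 -0.97, SE 0.19, edgeR adjusted p = 0.0122). E2F7, a repressor of E2F targets, fell in the same libraries against miR-200a (log2 -0.74, SE 0.21, edgeR adjusted p = 0.0419) and against the NC mimic (log2 -1.03, SE 0.21, edgeR adjusted p = 0.0129). The others called were CDKN2D, lower in both (log2 -0.71 and -0.62, edgeR adjusted p = 0.0268 and 0.0432), and, against the NC mimic, TFDP2, lower (log2 -0.53, edgeR adjusted p = 0.0301), and CDK6, higher (log2 0.55, edgeR adjusted p = 0.027). DESeq2 called the same genes of this list in the 3 comparisons. limma called only CCND1, higher against the NC mimic, so the calls of CDKN1C, E2F7, CDKN2D, TFDP2 and CDK6 were lost there. In these 3 lists, CDKN1C was the only gene that edgeR and DESeq2 called between miR-200a and the NC mimic. limma called 0 in that comparison, where it called 0.0316% of all genes. CDKN2A, whose product p16 holds back cyclin D kinases, had 1 count over the 6 libraries.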

How the data were processed

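RNA from 2 libraries in each of 3 groups was sequenced by QuantSeq 3′ mRNA sequencing. For each library, the authors deposited counts by gene symbol, whole numbers with no normalization. The submitters' processing notes name Bowtie2, edgeR and hg19 without roles; the counting program, its strand setting and the annotation are not given in the sources used here. Counts of the 286 symbols on several of the 25737 lines were summed. Groups came from the labels.

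The counts were compared in R 4.3.3 with edgeR 4.0.16 (TMM, filterByExpr with a minimum count of 10, quasi-likelihood test, all 6 libraries in 1 model with 3 residual degrees of freedom, Benjamini-Hochberg adjusted p under 0.05). The SE is the log2 fold change divided by the square root of its F. CPM are given as means ± SD with n = 2. At these depths 3 counts are 0.611 to 0.979 CPM. Alternatives were DESeq2 1.42.0, limma 3.58.1 on quantile-normalized log2(count + 1), no filter, at least 10 counts in every library, upper-quartile normalization, only the compared groups, a replicate block, unadjusted p with a fold over 1.5, and leaving out each library. The fit was tested on simulated data.

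Genes named were those with an adjusted p under 0.05 in any comparison, the most abundant gene of each role, 11 genes fixed by name, and the 3 genes of each other list with the smallest p; further genes were named after their values were seen. The 50 genes and the lists were chosen with earlier results of these data known. Libraries with the same number did not deviate together (correlations -0.00299, -0.0357 and -0.108), so numbers were not taken as pairs. Gene names, promoters and 3′UTRs came from GRCh38 (RefSeq and GENCODE 29), whereas the files name hg19; no coordinate was converted, and counts were joined by symbol. Genes with overlapping neighbours or pseudogenes (FEN1, PCNA, RFC3, RRM2, TYMS, UNG, GINS2, CHAF1A and MSH6 among them) may share reads.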

Additional observations from a re-analysis of the deposited data

How the results depend on the processing

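Genes called in all were 34 for miR-200a against the NC mimic, 1637 for the libraries labelled co-transfected against miR-200a and 1629 against the NC mimic. In that order they were 88 in the first with DESeq2; 4, 107 and 391 with limma; 230, 2490 and 2525 without a filter; 983, 542 and 587 with only the compared groups; and 610, 2481 and 2540 by an unadjusted p with a fold over 1.5. Of the 50 genes, limma called 2 and 2 higher against miR-200a and the NC mimic, and the compared groups alone 10 and 5. For miR-200a against the NC mimic, 4 were lower with only the compared groups, 3 by the unadjusted criterion and 1 without a filter. Upper-quartile normalization lowered the medians of the 50 genes to 0.528 and 0.293 and those of all genes to -0.0517 and -0.0494. limma put 23.4% and 42.2% of all calls on the higher side.

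With a replicate block, 13, 1157 and 1170 genes were called and 17 and 12 of the 50 were higher; RFC2 and UNG against miR-200a (adjusted p = 0.0738 and 0.0529) and E2F1 against the NC mimic (adjusted p = 0.0587) were lost, with the cause not tested. The crossed replicate block, added after seeing the data, called 22, 1644 and 1661 genes, with 20 and 13 of the 50 higher.

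Leaving out each library gave 0 to 1010, 31 to 4684 and 96 to 4675 genes. Of the 50, 0 to 27 were higher against miR-200a and 0 to 19 against the NC mimic, 0 to 1 and 0 to 2 were lower, and 0 to 4 were lower for miR-200a against the NC mimic. Medians ran from -0.204 to -0.134, 0.491 to 0.611 and 0.333 to 0.389. CCNE2 against the NC mimic reversed to -1.02 without the first library labelled co-transfected and was 0.63 without the second. Over the named genes and alternatives, 1060 values stayed on their side of the threshold, 158 lost and 38 gained the call, and 1 reversed. Depth limits E2F2 most, at 5 to 30 counts a library.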

Other observations

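Part of a list of genes drawn up for mitosis was higher in the libraries labelled co-transfected. Of its 22 genes, 7 rose and 0 fell against miR-200a and 4 rose and 0 fell against the NC mimic. The medians were 0.33 and 0.39 on the log2 scale. Of all tested genes, 7.03% and 6.92% were called higher. DESeq2 called 6 and 2 of the 22 higher, where it called 9.81% and 9.99% of all genes in either direction. Of these DESeq2 calls over all genes, 50.4% and 50.9% were higher. limma called 0 of the 22, where it called 0.846% and 3.09% of all genes in either direction. FOXM1, a transcription factor of the G2/M programme, had 39.2 and 44.7 CPM with the NC mimic, 33.0 and 39.1 with the miR-200a mimic, and 63.0 and 74.0 in those libraries, and rose in both comparisons (edgeR adjusted p = 0.0106 and 0.0272). MKI67, the proliferation marker, had 382 and 353, 326 and 306, and 450 and 554 CPM and passed in both (edgeR adjusted p = 0.0133 and 0.0493). DESeq2 called MKI67 against miR-200a but not against the NC mimic.

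Of 16 genes of recombination and checkpoint signalling, edgeR called 1 higher against miR-200a, BRCA2 (edgeR adjusted p = 0.0393), a share of 6.25% that is near the 7.03% of all genes. DESeq2 and limma called 0 there. BRCA2 had 31.2 and 35.2, 23.1 and 22.4, and 33.6 and 40.0 CPM. Against the NC mimic edgeR called 0 of the 16, as did DESeq2 and limma. At an unadjusted p under 0.05 in edgeR, 4 were higher (background 16.2%).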
